A study of Mus musculus with 8 samples.

Results

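Chromosome segregation in the early mouse embryo was followed through 48 genes of the spindle, the kinetochore and the mitotic checkpoint, out of 18193 genes that had a probe set with a single gene symbol. The members were chosen by function: checkpoint proteins, centromere and kinetochore subunits, mitotic kinases, kinesins, and proteins of anaphase and cytokinesis. All 48 were found on the array, and each was read by its brightest probe set. Of these, 47 exceeded the 40th percentile of signals on each of the 8 arrays and entered the test. The remaining member was Kif15, a spindle kinesin, which was above that level on 1 of 8 arrays and was not tested. Its signals were 9.91, 5.35, 30 and 17.6 in blastocysts, against 34.0, 6.6, 4.9 and 29.9 in 8-cell embryos.

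The study measured RNA of whole wild-type embryos of B6D2F1 parents on 1-colour oligonucleotide arrays. The 4 blastocyst arrays were from embryonic day 4.5 (120 h after the injection of hCG that times ovulation), and the 4 8-cell arrays from day 2.5 (66 h). Embryos of both stages had been grown in vitro in KSOM medium from the 1-cell stage, and no group carried an allele or a treatment. Nothing in the labels says that replicate arrays were made from separately collected embryos, so the p-values rest on a spread between arrays that may be technical.

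When a cell divides, kinetochores form on the centromeres and bind spindle microtubules. Kinetochores that are not yet bound keep the spindle checkpoint active, and this blocks the anaphase-promoting complex until all chromosomes are attached. Once the block is lifted, the protease separase cuts cohesin, the chromatids part, and the central spindle directs the cleavage furrow. The cleavages up to the 8-cell stage take place in cells that inherit much of this machinery from the egg, and the later divisions of the blastocyst are those of smaller cells.

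Signals are linear and were scaled per array by the submitters, so a difference is measured against the rest of the array and is no amount per embryo. In whole embryos, fewer cells of a type and less RNA per cell cannot be told apart. Each difference is the blastocyst mean minus the 8-cell mean of log2(signal + 16), given with its standard error (SE). The adjusted p is from limma, fitted over all 13274 tested genes with Benjamini-Hochberg adjustment, and a gene is called at an adjusted p under 0.05. Signals of different genes come from different probes, so levels were not compared between genes.

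The stage labels were checked against marker genes. Trophectoderm markers were called higher for 8 of 9 genes, with a summed signal of 83090 to 93000 in blastocysts, against 8343 to 9801 in 8-cell embryos. All 10 markers of oocytes and cleavage embryos were lower, with a summed signal of 584 to 898 in blastocysts and 35200 to 42860 in 8-cell embryos. Inner cell mass markers were higher for 6 and lower for 3 of 9 genes, with sums of 20160 to 23640 in blastocysts, against 16080 to 20200 in 8-cell embryos. Bmp15, Zp1, Oosp1, Nlrp14 and Omt2b exceeded the 40th percentile on 0 of 4 blastocyst arrays, and Elf5 and Sox17 on 0 of 4 8-cell arrays. These genes passed the filter through the stage where they are high, so their direction is not an independent check of the labels. Of 10 matched markers of the cumulus and granulosa cells around the egg, 5 passed the filter, of which Amhr2 and Foxl2 were lower and Star, Inha and Fshr not called, with sums of 554 to 710 in blastocysts, against 6670 to 10460 in 8-cell embryos. Most of the 8-cell sum was Amhr2 (282 ± 36.8 in blastocysts and 8118 ± 1598 in 8-cell embryos, SD, n = 4 each), and Foxl2 had 121 ± 25.8 and 174 ± 34.8. Star had 72.8 ± 31.6 in blastocysts and 88.0 ± 32.1 in 8-cell embryos, Inha 55.1 ± 11.0 and 39.0 ± 27.0, and Fshr 38.6 ± 13.8 and 30.4 ± 37.7. The 5 markers that did not pass the filter (Has2, Ptx3, Tnfaip6, Amh and Inhba) averaged 8.05 to 23.4 in both stages. The RNA had been amplified. The 3' minus 5' difference of the Actb control probe sets was 0.82 ± 0.11 log2 units in blastocysts and 2.42 ± 0.19 in 8-cell embryos, and that of Gapdh 1.36 ± 0.11 and 2.32 ± 0.26 (SD, n = 4 each). Both shifts had p = 0.0286 in a two-sided exact permutation test, the least that this design allows, and an adjusted p of 0.0571 over 4 array measures. The part of this shift in the results below was not tested.

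In blastocysts 15 members were higher, 19 were lower and 13 were not called. The called share, 34 of 47 (72.3%), stood beside a background of 71.7% of all tested genes, so the number of calls does not set these genes apart. By direction, 31.9% were higher (background 37.5%) and 40.4% lower (background 34.2%). Most changes were small: 6 members were called at least 2-fold higher (background 25.4%) and 6 at least 2-fold lower (background 20.4%), together 25.5% of the tested members, against 45.8% of all tested genes. The median absolute difference was 0.56 for the members and 0.90 for all tested genes, and the signed medians were -0.17 and 0.02. The 47 members exceeded the 40th percentile on all 8 arrays, whereas a background gene needed only 4. The background was thus not matched for signal, and the part of this in the smaller member changes was not tested. In 35 members (74.5%) the stages did not overlap, as was the case for 66.8% of all tested genes. Among these members, calls of kinetochore and checkpoint genes were mostly higher, and calls of kinases, kinesins and cytokinesis genes mostly lower. This split did not extend to further lists of like genes, where other kinetochore genes were higher for 10 and lower for 14, and other kinesin and cytokinesis genes higher for 9 and lower for 3. The bacterial hybridisation spike-ins averaged 11.172 ± 0.199 log2 units in blastocysts and 11.525 ± 0.277 in 8-cell embryos (SD, n = 4 each). By the two-sided exact permutation test this had p = 0.114 and an adjusted p of 0.152 over 4 array measures. Scaled to these spike-ins, the median difference of all tested genes moved up by 0.35, and 17 members were higher and 9 lower. Of the lower calls 10 were lost: 5 of kinase and passenger genes, 1 of a kinesin and 4 of central spindle and cytokinesis genes. That last role here includes the spindle genes Tpx2 and Nusap1. That left 1 higher and 1 lower kinase, 0 higher and 3 lower kinesins, and 2 higher and 2 lower genes of the central spindle and cytokinesis. Calls were then 65.4% higher for the members (44.1% on the deposited scale) and 66.8% higher for all genes (52.3%).

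**Figure D1:**
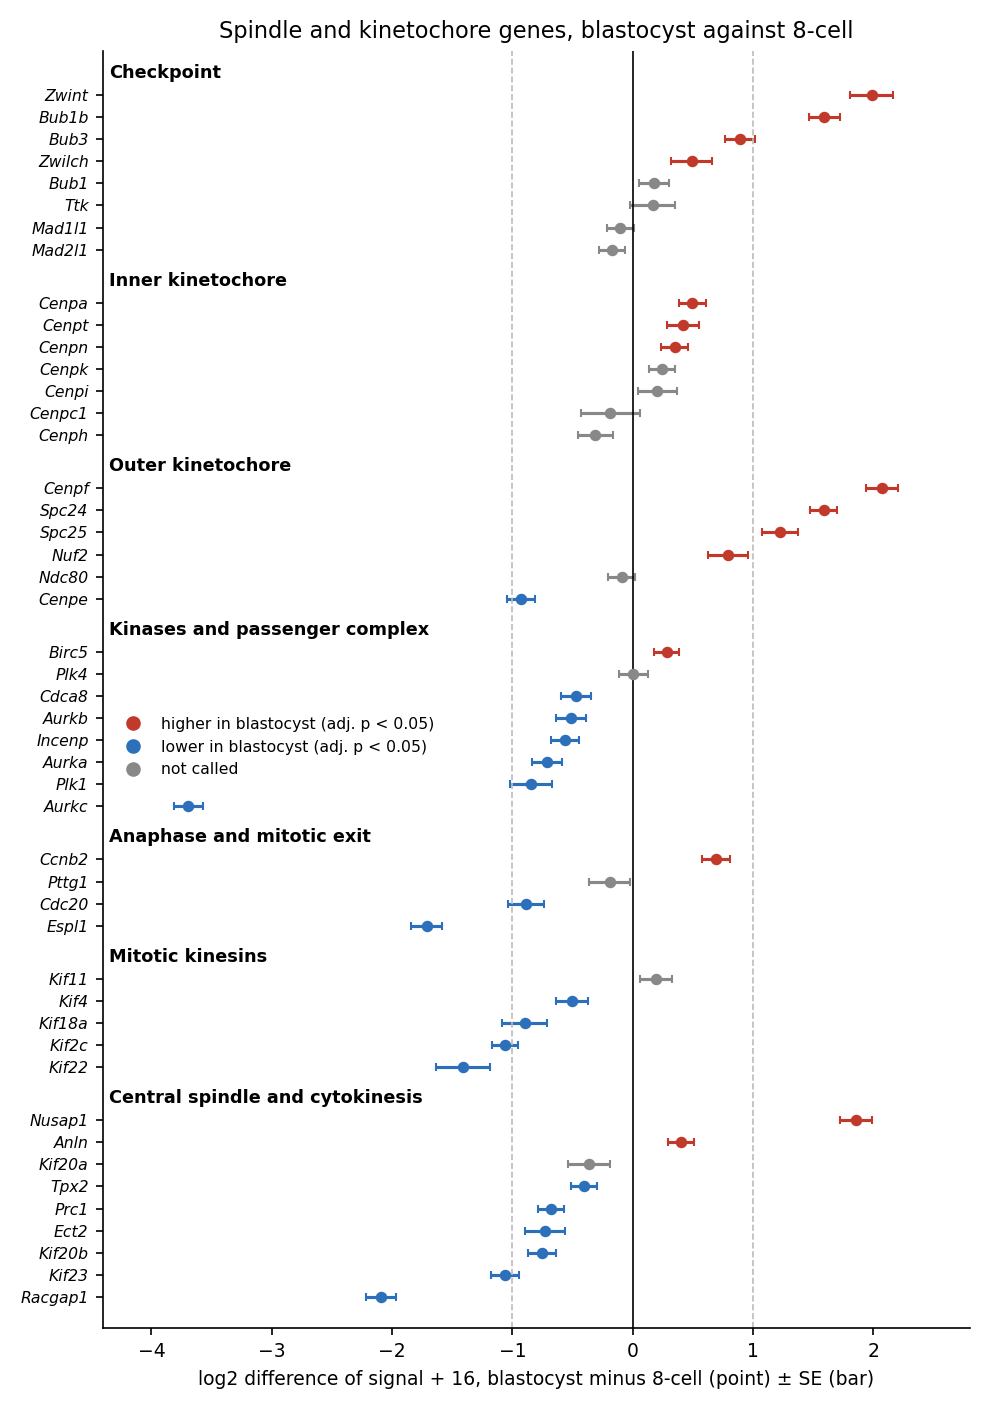
Differences of the 47 tested members by role. The x axis gives the log2 difference of signal + 16, blastocyst minus 8-cell, as a point with its SE as a bar (4 arrays per stage). Colours mark members called higher, lower or not called in blastocysts, and dashed lines stand at 2-fold. Aurkc (-3.69) lies apart on the left, and Cenpf (2.07), Zwint (1.99) and Nusap1 (1.85) lie farthest to the right.

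**Figure D2:**
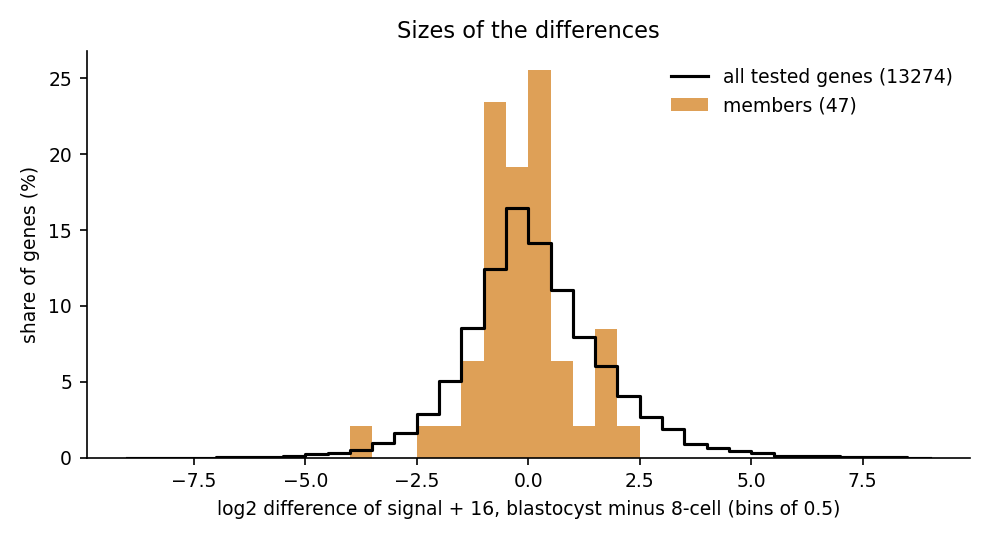
Distribution of the log2 differences, blastocyst minus 8-cell, in bins of 0.5, for the 47 tested members (bars) and all 13274 tested genes (line), each as a share of its own total in percent. The members are gathered near 0, with Aurkc between -4 and -3.5.

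Many genes of mitosis are switched on late in the cell cycle through a short promoter element, the cell cycle genes homology region (CHR), which is bound by the MuvB protein complex and often stands near CCAAT boxes, the site of the factor NF-Y. RefSeq promoter windows (GRCm38.p6, 250 bases before to 50 bases from the annotated start) were at hand for 42 of the 48 members, 48 windows in all, some of them overlapping windows of one gene. The CHR letters TTTGAA or TTCGAA, on either strand, were in 29 of 48 windows (60.4%), against 19.2% of all 32851 windows of the table. CCAAT, on either strand, was in 33 (68.8%), against 37.4%. Both were in 24 windows (50%), against 7.52%, and in 1 member window, that of Cdca8, these letters overlap. The CHR letters were in 9 of 14 windows of members called higher, in 15 of 18 of members called lower, and in 4 of 15 of members not called. These shares are a description without a test, and a match is not a bound site. The sequences below run from 110 bases before to 30 bases after the annotated start, 5′ to 3′ on the strand of the gene, for the 3 highest and the 3 lowest members by difference, and for Kif23, Cdc20 and Ccnb2, members with the classic arrangement. Capitals mark TTTGAA or TTCGAA and CCAAT as read on either strand, so that ATTGG is a CCAAT box on the other strand.
Cenpf: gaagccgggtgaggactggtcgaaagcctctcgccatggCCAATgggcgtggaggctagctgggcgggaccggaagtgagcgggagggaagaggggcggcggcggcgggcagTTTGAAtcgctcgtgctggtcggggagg
Zwint: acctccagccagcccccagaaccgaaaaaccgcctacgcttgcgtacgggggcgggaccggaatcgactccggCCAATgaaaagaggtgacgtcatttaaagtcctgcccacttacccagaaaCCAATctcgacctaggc
Nusap1: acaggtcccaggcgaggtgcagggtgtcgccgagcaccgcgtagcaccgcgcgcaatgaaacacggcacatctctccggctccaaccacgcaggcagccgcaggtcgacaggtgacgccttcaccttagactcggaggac
Espl1: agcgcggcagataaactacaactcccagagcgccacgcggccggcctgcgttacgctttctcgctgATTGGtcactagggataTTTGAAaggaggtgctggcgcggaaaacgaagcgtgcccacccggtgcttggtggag
Racgap1: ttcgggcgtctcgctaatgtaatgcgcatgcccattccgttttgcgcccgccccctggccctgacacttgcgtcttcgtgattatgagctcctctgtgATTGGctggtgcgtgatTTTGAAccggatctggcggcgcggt
Aurkc: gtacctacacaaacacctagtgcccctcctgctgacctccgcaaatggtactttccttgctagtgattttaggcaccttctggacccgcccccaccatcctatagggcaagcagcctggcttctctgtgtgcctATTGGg
Kif23: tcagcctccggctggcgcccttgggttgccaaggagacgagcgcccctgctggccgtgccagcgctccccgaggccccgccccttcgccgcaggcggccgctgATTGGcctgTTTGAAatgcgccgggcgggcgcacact
Cdc20: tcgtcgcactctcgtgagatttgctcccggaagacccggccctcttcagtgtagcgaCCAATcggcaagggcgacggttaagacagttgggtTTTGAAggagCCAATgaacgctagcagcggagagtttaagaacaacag
Ccnb2: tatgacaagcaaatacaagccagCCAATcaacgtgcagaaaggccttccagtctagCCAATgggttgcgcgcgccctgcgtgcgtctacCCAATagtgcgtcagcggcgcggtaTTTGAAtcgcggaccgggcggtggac
The stretches lie at chr1:189688057-189688196 (minus strand) for Cenpf, chr10:72654736-72654875 (plus strand) for Zwint, chr2:119618188-119618327 (plus strand) for Nusap1, chr15:102296183-102296322 (plus strand) for Espl1 and chr15:99651627-99651766 (minus strand) for Racgap1. Those of the others lie at chr7:6995275-6995414 (plus strand) for Aurkc, chr9:61946770-61946909 (minus strand) for Kif23, chr4:118437314-118437453 (minus strand) for Cdc20 and chr9:70421525-70421664 (minus strand) for Ccnb2. In Cenpf, Espl1, Racgap1, Kif23, Cdc20 and Ccnb2, TTTGAA stands within 30 bases of the annotated start, downstream of a CCAAT box. Zwint, Nusap1 and Aurkc show no CHR letters in these stretches, and Aurkc has 1 CCAAT match, downstream of its start. Among the 3 highest and 3 lowest members, the letters thus occur both in a gene that was higher (Cenpf) and in genes that were lower (Espl1, Racgap1) in blastocysts. The lower call of Racgap1 is that of its brightest probe set, and a second bright one was not called (0.20). Kif23 and Cdc20, both lower, and Ccnb2, which was higher, were printed because they have the letters.

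Checkpoint genes were higher or not called. Of 8 tested, 4 were higher, none was lower and 4 were not called, with a median difference of 0.33. Counts by role, here and below, stand beside 37.5% higher and 34.2% lower among all tested genes. With quantile normalization Mad1l1 was lower (-0.38, adjusted p = 0.00994). Zwint, a kinetochore protein that binds the checkpoint's docking platform, had signals of 6757, 6181, 6330 and 6195 in blastocysts, against 1959, 1453, 1968 and 1154 in 8-cell embryos. The blastocyst arrays lay close together and all above the 8-cell arrays, a difference of 1.99 (SE 0.18, 3.96-fold, adjusted p = 6.04e-06). Another 4 probe sets of Zwint gave 2.00 to 2.30, and 1 dim probe set gave -0.30 (SE 0.17, adjusted p = 0.15 in the fit over all probe sets).

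Bub1b encodes BubR1, a subunit of the complex that inhibits Cdc20. Its signals were 4226, 4228, 4089 and 3803 in blastocysts and 1591, 1163, 1271 and 1382 in 8-cell embryos, 3.02-fold higher (1.59, SE 0.13, adjusted p = 2.60e-06). The stages did not overlap, and the other probe sets of the gene gave 1.16 and 1.24. Bub3, the partner that carries BubR1 and Bub1 to kinetochores, was at 8833, 9113, 8345 and 9610 in blastocysts, against 5492, 4165, 4625 and 5130 in 8-cell embryos. It rose by 0.89 (SE 0.12, adjusted p = 0.000125), and dimmer probe sets gave 2.87 and, not called, 0.15 (SE 0.23, adjusted p = 0.575 in the limma fit over all probe sets). Zwilch, of the complex that brings dynein to kinetochores, was higher by 0.49 (SE 0.17, adjusted p = 0.0243), and its adjusted p was 0.052 to 0.0635 without 8-cell replicate 1, without blastocyst replicate 2 or 3, or with a replicate block.

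Bub1 is the kinase related to BubR1. Its signals were 2111, 2205, 2450 and 2016 in blastocysts, against 2032, 1960, 1654 and 2148 in 8-cell embryos. The stages overlapped, and the difference of 0.17 (SE 0.13) was not called (adjusted p = 0.241). A dim second probe set gave 1.47 (140 in blastocysts, 42.6 in 8-cell embryos), and the mean of its probe sets 0.82 (adjusted p = 0.000512). Mad2l1 encodes Mad2, which binds Cdc20 when kinetochores are free. It was at 4702, 4634, 5135 and 4645 in blastocysts, against 5750, 5547, 5246 and 5005 in 8-cell embryos, an overlap by 1 array (-0.17, SE 0.11, adjusted p = 0.176). Mad1l1, its anchor, differed by -0.10 (SE 0.11, adjusted p = 0.427). Ttk encodes Mps1, the kinase that starts checkpoint signalling. Its signals were 1605, 1673, 1713 and 1694 in blastocysts and 1453, 2072, 1060 and 1532 in 8-cell embryos. The wider 8-cell spread enclosed the blastocyst values (0.17, SE 0.19, adjusted p = 0.444).

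Centromere genes shifted little. Of 7 tested members of the inner kinetochore 3 were higher and 4 were not called, and the differences ran from -0.31 to 0.50. Cenpa, the histone H3 variant that marks the centromere, had signals of 5747, 6678, 5625 and 6347 in blastocysts, against 4249, 4137, 4439 and 4425 in 8-cell embryos. All blastocyst arrays were above (0.50, SE 0.11, 1.41-fold, adjusted p = 0.00249). Cenpt and Cenpn, which link CENP-A chromatin to the outer kinetochore, were higher by 0.42 (SE 0.13, adjusted p = 0.0191) and 0.35 (SE 0.11, adjusted p = 0.018). With a replicate block their adjusted p was 0.0558 and 0.0547, and that of Cenpt was 0.0545 without blastocyst replicate 2. Cenpk (0.24), Cenpi (0.20), Cenpc1 (-0.19) and Cenph (-0.31) were not called (adjusted p = 0.0718 to 0.521), though Cenph was lower with quantile normalization (-0.58, adjusted p = 0.00563), and Cenpk (0.60, adjusted p = 0.027) and Cenpi (0.56, adjusted p = 0.0376) were higher with spike-in scaling.

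Outer kinetochore genes had the highest median of the roles, 1.01. Of 6 tested, 4 were higher (background 37.5%), 1 lower (background 34.2%) and 1 not called. Cenpf, a large protein of the nuclear envelope and outer kinetochore, had signals of 4984, 5114, 4623 and 5432 in blastocysts and 1386, 997, 1115 and 1288 in 8-cell embryos. It was 4.19-fold higher, with no overlap of the stages (2.07, SE 0.13, adjusted p = 6.86e-07). Its dimmer probe sets gave 0.87 and, not called, 0.33 (SE 0.23, adjusted p = 0.221 in the limma fit over all probe sets).

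The NDC80 complex is the rod that grips the microtubule end, and its 4 genes moved unequally. Spc24 and Spc25 form the end of the rod that faces the centromere. Spc24 was at 1894, 1976, 1714 and 1586 in blastocysts, against 603, 563, 579 and 591 in 8-cell embryos (1.59, SE 0.11, adjusted p = 1.31e-06). Spc25 was at 3091, 2952, 2870 and 3397 in blastocysts, against 1312, 1039, 1600 and 1335 in 8-cell embryos (1.22, SE 0.15, adjusted p = 4.37e-05), and a dimmer probe set gave 0.42. Both were higher on every blastocyst array than on any 8-cell array. Nuf2 and Ndc80 form the end that faces the microtubule. Nuf2 had 608, 782, 752 and 867 in blastocysts and 399, 348, 539 and 432 in 8-cell embryos, again without overlap (0.79, SE 0.16, adjusted p = 0.00172). Ndc80 averaged 1365 ± 96.3 in blastocysts and 1457 ± 79.8 in 8-cell embryos (SD, n = 4 each) and was not called (-0.09, SE 0.11, adjusted p = 0.466). Cenpe, the kinesin that carries chromosomes to the spindle equator, was the lower gene of this role. Its signals were 4031, 4052, 3709 and 4167 in blastocysts, against 6817, 7769, 8637 and 7337 in 8-cell embryos (-0.93, SE 0.12, adjusted p = 5.91e-05), and the other probe set gave -2.55.

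**Figure D3:**
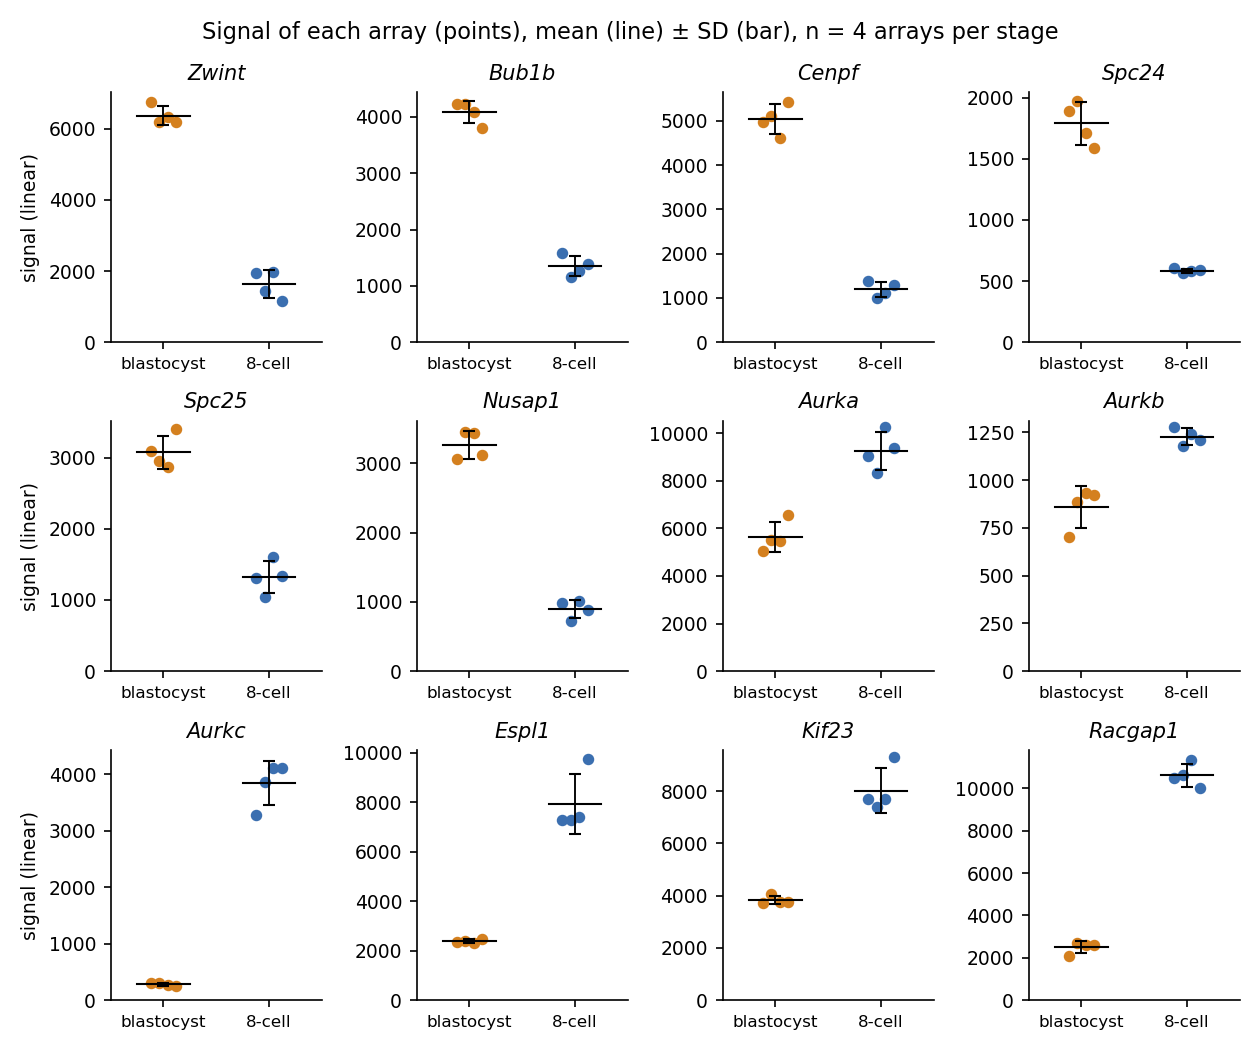
Linear signals of 12 members on each array (points), with the mean (line) and SD (bar) of the 4 arrays of a stage, blastocyst left and 8-cell right, on axes that start at 0. In the first 6 panels all blastocyst arrays are above the 8-cell arrays, and in the last 6, from Aurka to Racgap1, all are below them.

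The Aurora kinases were all lower in blastocysts, and Aurkc by far more than its relatives. Aurora A builds the spindle poles, Aurora B corrects faulty attachments as part of the chromosomal passenger complex, and Aurora C, known mainly from oocytes, spermatocytes and early embryos, can take the place of Aurora B in that complex. Aurkc had signals of 301, 299, 268 and 258 in blastocysts, against 3286, 3860, 4106 and 4118 in 8-cell embryos. It was 12.9-fold lower, far outside the spread of the arrays (-3.69, SE 0.12, adjusted p = 1.96e-08), and the alternatives that were run gave -3.78 to -3.34. The gene was read by a single probe set and stayed above the 40th percentile on all blastocyst arrays.

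Aurkb was at 700, 886, 934 and 925 in blastocysts, against 1281, 1180, 1242 and 1208 in 8-cell embryos (-0.51, SE 0.13, adjusted p = 0.00458), and its other probe set gave -0.50. Aurka was at 5071, 5494, 5480 and 6558 in blastocysts, against 9032, 8341, 10252 and 9378 in 8-cell embryos (-0.71, SE 0.13, adjusted p = 0.00061). The stages did not overlap for either gene. With spike-in scaling Aurkb gave -0.16 (adjusted p = 0.592) and Aurka -0.36 (adjusted p = 0.194).

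Unequal change was tested as the log2 ratio of 2 genes on the same array, over 8 pairs of relatives or partners, some of which share a gene. Aurkc over Aurkb changed by -3.18, with array ratios of -1.78 to -1.17 in blastocysts and 1.35 to 1.76 in 8-cell embryos. Aurkc over Aurka changed by -2.98, and Aurkb over Aurka by 0.20. The ratios with Aurkc did not overlap between the stages (two-sided exact permutation p = 0.0286 and adjusted p = 0.0457 for both), and that of Aurkb over Aurka did (exact permutation p = 0.143, adjusted p = 0.163). Bub1b over Bub1 changed by 1.42, Plk4 over Plk1 by 0.85 and Pttg1 over Espl1 by 1.52 (exact permutation p = 0.0286 and adjusted p = 0.0457 for each). The exact p of 0.0286 is the least that this design allows. The adjusted p of 0.0457 therefore reflects only how many of the 8 pairs reached that least value. Both Aurkc pairs are among these and share a gene, so the adjusted p of every passing pair depends on counting both. Mad2l1 over Mad1l1 (-0.07, exact permutation p = 0.486) and Kif20b over Kif20a (-0.39, exact permutation p = 0.0571, adjusted p = 0.0762) did not pass. A dimmer Plk4 probe set gave -1.28, below the -0.85 of Plk1, and was not set over Plk1 by itself. When probe sets of a gene were averaged, Plk4 over Plk1 gave 0.51 (adjusted p = 0.0457). Bub1b over Bub1 then gave 0.51 (adjusted p = 0.163) and Kif20b over Kif20a -0.63 (adjusted p = 0.0457). Without blastocyst replicate 1 Kif20b over Kif20a changed by -0.50 (adjusted p = 0.0381), each by the exact permutation test.

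**Figure D4:**
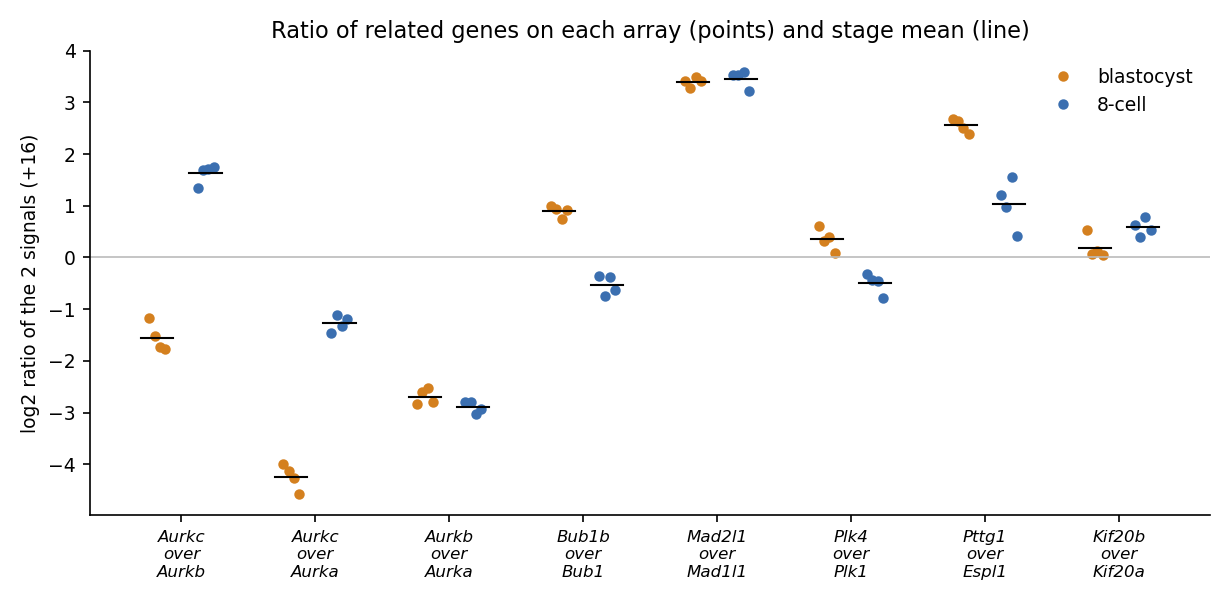
Log2 ratio of the signals (each + 16) of 2 related genes on each array (points), with the stage mean (line), blastocyst left and 8-cell right of each pair. The zero of the axis has no meaning across probes. The stages are apart for Aurkc over Aurkb, where blastocyst ratios lie between -1.78 and -1.17, and for Aurkc over Aurka, Bub1b over Bub1, Plk4 over Plk1 and Pttg1 over Espl1.

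The other subunits of the passenger complex did not move together, and the probe sets of Incenp and Cdca8 disagreed. Incenp, the scaffold of the complex, averaged 8710 ± 626 in blastocysts and 12893 ± 962 in 8-cell embryos (SD, n = 4 each; -0.56, SE 0.11, adjusted p = 0.00142). The probe set used can match several transcripts, and the 3 others past the filter gave -0.12 to 0.19, none called. Cdca8, encoding borealin, was lower by 0.47 on its brightest probe set (SE 0.12, adjusted p = 0.00693) but higher by 0.96 and 0.37 on the other probe sets, called in the opposite direction. Its direction is therefore not settled. Birc5, encoding survivin, had signals of 7657, 7087, 7175 and 7846 in blastocysts, against 6155, 5677, 6344 and 6313 in 8-cell embryos. It was higher by 0.28 without overlap (SE 0.11, adjusted p = 0.0361), and its adjusted p was 0.0538 to 0.0864 in 8 of 19 alternatives.

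Plk1, the Polo kinase of mitotic entry, spindle and cytokinesis, was at 1776, 2108, 1975 and 2647 in blastocysts, against 3267, 3242, 4375 and 4480 in 8-cell embryos. It was 1.80-fold lower without overlap (-0.85, SE 0.17, adjusted p = 0.00146), or -0.49 with spike-in scaling (adjusted p = 0.108). Plk4, the kinase that starts centriole duplication, averaged 2698 ± 93.1 in blastocysts and 2706 ± 351 in 8-cell embryos (SD, n = 4 each; difference 0.00, SE 0.12, adjusted p = 0.98). Its other probe sets gave -1.28, called lower (adjusted p = 0.000112), and 0.27, not called (adjusted p = 0.279), in the limma fit over all probe sets.

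Genes of anaphase and mitotic exit went different ways. Espl1 encodes separase, the protease that cuts cohesin. Its signals were 2352, 2398, 2323 and 2473 in blastocysts, against 7292, 7261, 7393 and 9731 in 8-cell embryos. The blastocyst arrays lay within a narrow band far below all 8-cell arrays, 3.28-fold lower (-1.71, SE 0.13, adjusted p = 1.76e-06). Pttg1 encodes securin, the inhibitor of separase. It was at 15216, 15071, 13349 and 12985 in blastocysts and 16793, 14240, 21813 and 12940 in 8-cell embryos, which overlapped (-0.19, SE 0.17, adjusted p = 0.34). Without probe sets that can match several transcripts a dim one gave 1.55 (adjusted p = 0.0179).

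Cdc20, the activator of the anaphase-promoting complex and target of the checkpoint, had signals of 8635, 9690, 10227 and 11039 in blastocysts, against 19005, 17612, 22260 and 14983 in 8-cell embryos. It was lower on every blastocyst array (-0.89, SE 0.15, adjusted p = 0.000421), and its other probe sets gave -0.82 and -0.35. Ccnb2, cyclin B2, which is destroyed at anaphase, was at 5311, 5392, 4938 and 4875 in blastocysts and 2982, 2918, 3226 and 3599 in 8-cell embryos. It went the other way, 1.61-fold higher without overlap (0.69, SE 0.12, adjusted p = 0.00042).

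Mitotic kinesins counted outside the kinetochore and cytokinesis roles were lower or not called. Of 5 tested, 4 were lower (background 34.2%) and none higher (background 37.5%). Kif22, the chromokinesin Kid, which pushes chromosome arms away from the poles, had the widest spread of any member in blastocysts (2385, 4660, 5064 and 3360), against 10914, 9239, 9927 and 9564 in 8-cell embryos. All 4 still lay below (-1.41, SE 0.23, adjusted p = 0.000306), and the other probe sets gave -1.18 and -1.88. Kif2c encodes MCAK, which takes microtubule ends apart at centromeres. It was at 1856, 1837, 1874 and 2220 in blastocysts and 4064, 4077, 3977 and 4165 in 8-cell embryos, 2.09-fold lower (-1.06, SE 0.11, adjusted p = 1.64e-05), with -1.59 to -0.70 on its other probe sets. Kif18a, which damps chromosome movements, was at 818, 1043, 822 and 832 in blastocysts, against 2093, 1327, 1995 and 1320 in 8-cell embryos. The stages did not overlap (-0.90, SE 0.19, adjusted p = 0.00169). Kif4, a chromokinesin that also acts at the central spindle, was lower by 0.50 (SE 0.14, adjusted p = 0.00754), or by 0.15 with spike-in scaling (adjusted p = 0.611). Kif11, the motor that pushes spindle poles apart, averaged 1201 ± 162 in blastocysts and 1043 ± 91.0 in 8-cell embryos and was not called (SD, n = 4 each; 0.19, SE 0.14, adjusted p = 0.228).

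Genes of the central spindle and cytokinesis, counted together with the spindle genes Tpx2 and Nusap1, were lower for 6 of 9 members (background 34.2%). They were higher for 2 (background 37.5%) and not called for 1. Racgap1 and Kif23 encode the subunits of centralspindlin, which bundles microtubules between the separating chromosomes. Racgap1 had signals of 2067, 2713, 2599 and 2601 in blastocysts, against 10478, 10616, 11354 and 10045 in 8-cell embryos, 4.26-fold lower without overlap (-2.09, SE 0.12, adjusted p = 4.03e-07). A second, also bright probe set of Racgap1 did not show this: it averaged 1576 in blastocysts and 1360 in 8-cell embryos (0.20, SE 0.15, adjusted p = 0.242), and the mean of the gene's probe sets gave -0.71. Kif23 was at 3728, 4067, 3737 and 3768 in blastocysts and 7680, 7393, 7688 and 9288 in 8-cell embryos, 2.08-fold lower (-1.06, SE 0.12, adjusted p = 2.40e-05). Its other probe sets gave -0.86 and -1.24.

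Ect2, the exchange factor that centralspindlin recruits to activate RhoA, was lower by 0.73 (SE 0.17, adjusted p = 0.00302). Prc1, the crosslinker of antiparallel microtubules, was lower by 0.68 (SE 0.11, adjusted p = 0.000283), Kif20b, a kinesin of late cytokinesis, by 0.75 (SE 0.11, adjusted p = 0.000212) and Tpx2, the activator of Aurora A, by 0.40 (SE 0.11, adjusted p = 0.00788). None of these 4 was called with spike-in scaling (adjusted p = 0.151 to 0.867). Kif20a, the kinesin that brings the passenger complex to the central spindle, was not called (-0.36, SE 0.17, adjusted p = 0.0855). Nusap1, which stabilises microtubules near chromosomes, rose instead. It was at 3059, 3450, 3437 and 3122 in blastocysts, against 981, 726, 1011 and 876 in 8-cell embryos (1.85, SE 0.13, 3.61-fold, adjusted p = 1.40e-06). Anln, the actin-binding anillin of the cleavage furrow, was higher by 0.40 (SE 0.11, adjusted p = 0.00813), and its dimmer probe set gave 2.10.

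Of the 47 tested members 27 had another probe set past the filter, 48 probe sets in all, and 2 of these, both of Cdca8, were called opposite to the one used. Some probe sets, with the endings _x_at, _s_at and _a_at, can match more than one transcript. Without them the count of lower members was 13 and that of higher members 15, over fewer tested members. Aurkb, Birc5, Cenph, Ect2, Kif20a, Mad1l1, Nuf2, Prc1 and Racgap1 then had no probe set past the filter and were not tested. Of these, Aurkb, Ect2, Prc1 and Racgap1 had been called lower, and Birc5 and Nuf2 higher.

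**Figure D5:**
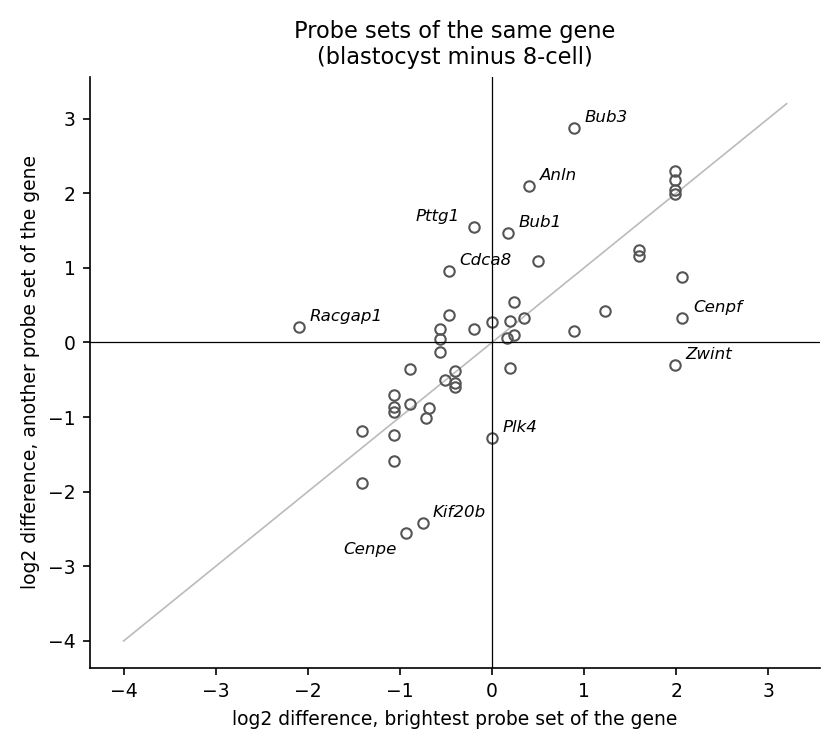
Log2 difference (blastocyst minus 8-cell) of the 48 other probe sets of members past the filter (y axis) against that of the brightest probe set of the same gene (x axis), with the line of equal values. Genes whose 2 values differ by over 1.2 are named. Racgap1 is at -2.09 on x and 0.20 on y, and Cdca8 lies above 0 on y but below 0 on x.

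Neighbouring parts of the machinery were read through further gene lists. Their counts, here and in the next paragraphs, stand beside 37.5% higher and 34.2% lower among all tested genes. Among 30 tested genes of other kinetochore and centromere proteins 10 were higher and 14 lower. Of the higher genes, Itgb3bp exceeded the 40th percentile on 0 of 4 8-cell arrays and Cenpb on 1 of 4. Both passed the filter through the stage where they are high. Clasp1, which steadies microtubule ends, rose by 2.46 (SE 0.18) and Cenpo, an inner kinetochore subunit, by 1.82 (SE 0.16). Mad2l1bp, whose product p31comet takes Mad2 out of the checkpoint complex, fell by 2.14 (SE 0.13), and Spdl1, encoding the dynein adaptor Spindly, by 1.61 (SE 0.13). Of 18 genes of the anaphase-promoting complex and its regulators 8 were higher and 7 lower. Its activator Fzr1 (1.94, SE 0.18) and the subunit Cdc26 (1.41, SE 0.15) rose most, and the subunits Anapc7 (-2.08, SE 0.13) and Cdc27 (-1.65, SE 0.14) fell most.

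Cohesin and its regulators had 6 higher and 9 lower genes of 18 tested. Esco2, which acetylates cohesin (-3.05, SE 0.16), and Mau2, a subunit of the cohesin loader (-3.04, SE 0.17), fell most. Sgo2a, a protector of centromeric cohesin, rose by 1.21 (SE 0.12). Smc1b, a cohesin subunit of meiosis, had a low signal (71.9 ± 21.0 in blastocysts and 18.6 ± 14.6 in 8-cell embryos, SD, n = 4 each). It was called higher (1.42, SE 0.32), but only 1 of 4 8-cell arrays exceeded the 40th percentile, so it passed the filter through the stage where it is high. Condensin, the complex that compacts mitotic chromosomes, had 4 higher and 2 lower genes of 8. Ncapg (1.23, SE 0.12) and Ncapd2 (1.2, SE 0.16), subunits of condensin I, rose, and Ncapg2 of condensin II fell by 0.88 (SE 0.18). The other subunits particular to each complex, named after their values were seen, were Ncaph of condensin I (1.02, SE 0.20), and Ncaph2 (-0.75, SE 0.11) and Ncapd3 (-0.05, SE 0.11, adjusted p = 0.68) of condensin II. Ncaph and Ncaph2 were read by probe sets ending in _x_at, which can match more than one transcript.

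Centrosome and spindle pole genes had 14 higher and 12 lower members of 28. Of the lower genes, Tubg2 exceeded the 40th percentile on 0 of 4 blastocyst arrays and passed the filter through the 8-cell arrays. Cdk5rap2, a centrosome scaffold, had 190 ± 26.9 in blastocysts and 25.2 ± 16.5 in 8-cell embryos (SD, n = 4 each), where only 2 of 4 arrays exceeded the 40th percentile, so the size of its difference (2.41, SE 0.28) rests on a dim stage. Haus1 of the augmin complex, which branches microtubules, rose by 2.19 (SE 0.15), and the augmin genes Haus2 (-2.79, SE 0.19) and Haus6 (-2.19, SE 0.13) fell. Of 17 tested genes of other mitotic kinesins and cytokinesis proteins 9 were higher and 3 lower. Ckap2l, a spindle protein (2.13, SE 0.16), and Cep55, which recruits the abscission machinery (1.81, SE 0.14), rose most, and Kif18b (-1.31, SE 0.13) and the citron kinase gene Cit (-1.27, SE 0.22) fell most. With spike-in scaling the lower counts were 7 for other kinetochore genes, 4 for the anaphase-promoting complex, 5 for cohesin, 6 for centrosome genes and 0 for condensin, all from limma. Without the probe sets that can match several transcripts, 5 genes of the anaphase-promoting complex were higher and 1 of condensin was lower, among the genes still tested.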

How the data were processed

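The deposited table held signal intensity values on a linear scale for 45101 probe sets on 8 arrays. Per the labels' protocols, RNA was isolated with a kit for small samples, amplified and labelled with biotin, and the software behind the deposited intensity values was not given in the sources used here. On each array the mean after removal of the outer 2% was 500, and array medians were 47.1 to 56.0. All values of the 8-cell columns carry at most 1 decimal, as do 0.297 to 0.375% of the blastocyst values, so the handling of the arrays and the stage cannot be told apart. The deposited scale was kept.

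Values became log2(signal + 16). The platform annotation gave 1 symbol to 34945 probe sets, without the 64 control probe sets. It gave several to 932 and none to 9160, which named no gene. A gene was read by its brightest probe set and tested when above the 40th percentile on at least 4 arrays. Gene IDs looked up in a RefSeq table of GRCm38.p6 changed 0 symbols, and 3 of 163 listed genes matched no probe set.

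Stages were compared with limma 3.58.1 in R 4.3.3 (lmFit and eBayes, no covariates), with Benjamini-Hochberg adjustment over all 13274 genes. The number of arrays limits the precision. Ratios of paired members and array measures were compared by exact permutation over all 70 ways to assign 4 arrays to a stage. Data were simulated for this comparison with 13274 genes, of which 200 were changed in each of 10 runs. There limma recovered 92.8% of log2 differences of 2, 58.1% of 1 and 11.2% of 0.5. With so few changed genes the adjustment is stricter than on the real arrays, where 71.7% of tested genes were called. The shares therefore do not give the sensitivity reached here. The members and lists were chosen with earlier results of these data known.

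Values of each array are given for the Aurora kinases, 11 other fixed members, and the 8 highest and 8 lowest called members. In the lists of neighbouring machinery, up to 2 of the highest and 2 of the lowest called genes are named, without probe sets ending in _x_at. The condensin genes Ncaph, Ncaph2 and Ncapd3 were named outside this rule. Alternatives were quantile, median or spike-in scaling, other filters, probe sets and added constants, an intensity trend, array weights, a replicate block and leaving out each array. Replicate numbers are shared by the stages, but deviations of same-numbered arrays from their stage means correlated at -0.035 to -0.024, so they were not taken as pairs.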

Additional observations from a re-analysis of the deposited data

Results flagged for a closer look

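In 6 of 94 groups of 4 arrays (47 members, 2 stages) the highest or lowest array stood apart from the other arrays, by a gap larger than Dixon's 95% critical share of the range. Chance alone gives about 1 in 20 groups. The gap was 0.938 of the range for Espl1 in 8-cell embryos (replicate 4 at 9731, the next at 7393). It was 0.931 for Kif18a in blastocysts (replicate 2 at 1043, the next at 832) and 0.896 for Kif2c in blastocysts (replicate 4 at 2220, the next at 1874). For Kif23 it was 0.879 (blastocyst replicate 2 at 4067, the next at 3768), for Mad2l1 0.858 (blastocyst replicate 3 at 5135, the next at 4702) and for Racgap1 0.842 (blastocyst replicate 1 at 2067, the next at 2599). The calls of Espl1, Kif18a, Kif2c, Kif23 and Racgap1 held without each of the 8 arrays in turn, and Mad2l1 stayed uncalled.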

How the results depend on the processing

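Across 20 alternatives, 20 of 34 called members kept their call and direction in each one in which they were tested, and 5 of 13 members not called stayed so. The other 8 were Bub1, Cenph, Cenpi, Cenpk, Kif20a, Mad1l1, Plk4 and Pttg1; Kif20a was called lower with an intensity trend (-0.36, adjusted p = 0.0319) and without blastocyst replicate 4 (-0.47, adjusted p = 0.0367), and Cenpk higher with the trend (0.24, adjusted p = 0.0465). Spike-in scaling gave 9 lower members, against 19, a median member difference of 0.18, against -0.17, and 2806 lower genes in all, against 4539. The median was -0.093 with the mean of probe sets and 0.18 without the _x_at, _s_at and _a_at probe sets, the latter over fewer tested members. It was -0.199 to -0.092 when single arrays were left out, with the highest value without blastocyst replicate 1. Cdca8 reversed to 0.285 with the mean of probe sets (adjusted p = 0.0549) and to 0.96 without the _x_at, _s_at and _a_at probe sets. Those settings also turned Plk4, not called on the probe set used, to -0.335 (adjusted p = 0.0338) and Pttg1, likewise, to 1.55. The mean also takes in dim probe sets. Aurkb over Aurka passed with 64 added (0.22, adjusted p = 0.0381), Bub1b over Bub1 gave 0.51 and Kif20b over Kif20a -0.63 with the mean of probe sets. Leaving out single arrays kept the outcome of the other 7 pairs, while Kif20b over Kif20a ran from -0.504 to -0.326 and passed without blastocyst replicate 1 (adjusted p = 0.0381 by the exact permutation test). The replicate block gave 11 higher members, against 15, and 19 lower members; Birc5, Cenpn, Cenpt and Zwilch lost their call. The count of lower cumulus and granulosa cell markers was 1, against 2, with spike-in or median scaling, the mean of probe sets or an intensity trend. It was also 1 without 8-cell replicate 3 or without blastocyst replicate 1, 2 or 4. The count of higher ones was 2, against 0, with spike-in scaling and without 8-cell replicate 3. The cause of these changes was not tested, and the signal over background of each probe set is unknown here.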
